A study of Mus musculus with 11 samples.

Results

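Phosphatidylserine decarboxylase is encoded in the mouse by Pisd, and genome annotations list pseudogene copies of it under the symbols Pisd-ps1, Pisd-ps2 and Pisd-ps3. These genes are described here beside ENSMUSG00000095041, a gene identifier without a symbol chosen by its read count, which was higher in cortex of mice that lack Abi3. The 5 genes were taken out of 53700 identifiers, ENSMUSG00000095041 by its identifier and the others by symbol, and 4 of them had a count. Pisd-ps3, which RefSeq lists with no chromosome, had no Ensembl identifier in the annotation used here and has no value, and whether it is the same locus as ENSMUSG00000095041 was not determined. No source used here gives a position or a sequence for ENSMUSG00000095041, and it is set beside Pisd with no relation between them known from these sources.

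The enzyme sits in the inner mitochondrial membrane and removes the carboxyl group of phosphatidylserine, which yields phosphatidylethanolamine. This is the mitochondrial route to phosphatidylethanolamine, beside the route in the endoplasmic reticulum that starts from ethanolamine. Phosphatidylserine itself is made by the synthases Ptdss1 and Ptdss2, and cells keep it on the inner face of the plasma membrane by means of flippases, since its exposure on the surface serves as a signal for engulfment by phagocytes such as microglia.

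Cortical RNA of female 5xFAD mice, 8 months old, was sequenced with QuantSeq, which reads transcripts near their 3′ ends. The question was what deletion of Abi3, a gene for an actin regulator enriched in microglia, changes in a mouse with brain amyloid, and the 2 groups were Abi3_WT (6 animals, with intact Abi3) and Abi3_KO (5 animals, with Abi3 deleted). All 11 animals carried the 5xFAD transgenes, human genes mutated as in familial Alzheimer's disease, driven by the Thy1 promoter and thus mainly in neurons, and the labels give the strain as C57BL/6. By the study's methods the transgenic line was bought on a mixed C57BL/6 and SJL background, the deletion allele was made in C57BL/6N as a null in all cells, and the mice used were heterozygous for an SJL variant of Trem2. Bulk cortex was sequenced, in which fewer cells of a type and less RNA per cell cannot be told apart.

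Reads in genes ranged from 3202310 to 5501958 per animal, and 17626 genes were tested. Abi3 had between 10 and 38 reads in Abi3_WT, 2 reads in Abi3_KO replicate 2 and none in the other 4 Abi3_KO animals. All 45 marker genes of 10 cell types and neighbouring tissues had reads, the cortical excitatory neuron markers summing to 1002 to 1409 normalized counts in Abi3_WT and 1172 to 1509 in Abi3_KO, and the summed levels of the 10 lists overlapped between the groups (smallest two-sided exact permutation p = 0.188, not adjusted). Choroid plexus markers, which cortex should not hold, summed to 59.4 to 3561 normalized counts in Abi3_WT and 91.9 to 2332 in Abi3_KO. Reads placed outside genes were fewer in Abi3_KO, at 49.8, 51.1, 52.8, 53.7 and 62.5 per 100 reads in genes against 59.3 to 68.8, median 66.9, in Abi3_WT (two-sided exact permutation test, p = 0.00649). Labels did not give a batch or date for any animal.

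In the mouse genome build GRCm39, Pisd (ENSMUSG00000023452) lies at chr5:32893210-32943185 on the minus strand, and its transcript Pisd-201 has 8 exons and 2812 bases, of which 1221 are coding with the stop codon. Pisd-ps1 (ENSMUSG00000082286) lies at chr11:3076006-3081004 on the plus strand, on the chromosome that also carries Abi3, with 7 exons and 1235 bases. Pisd-ps2 (ENSMUSG00000023795) lies at chr17:3126853-3134357 on the minus strand, with 7 exons and 1175 bases. Both are annotated as transcribed unprocessed pseudogenes, a class of gene copies that keep their introns. Exons 4 to 8 of Pisd-201 each had a match at both loci.

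A search of the whole genome sequence with the exons of Pisd-201 found another copy of exons 4 to 8, at JH584304.1:52190-55701 on the minus strand of a scaffold that has no chromosome, and a lone match of exon 4 on chromosome 14 (identity 96.2%). Over exons 4 to 8, identity to Pisd was 91.0% for the scaffold copy, 90.9% for the Pisd-ps1 locus and 92.6% for the Pisd-ps2 locus, where 969 bases of the last exon had no match. The last exon was the least alike in all 3 copies, at 89.0% to 89.6%, and exons 4 to 7 were 93.8% to 98.1% identical. The annotation used here covers the 22 reference chromosomes, the mitochondrial one included, and no unplaced scaffold, so a gene on such a scaffold would be missing from it.

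**Figure D1:**
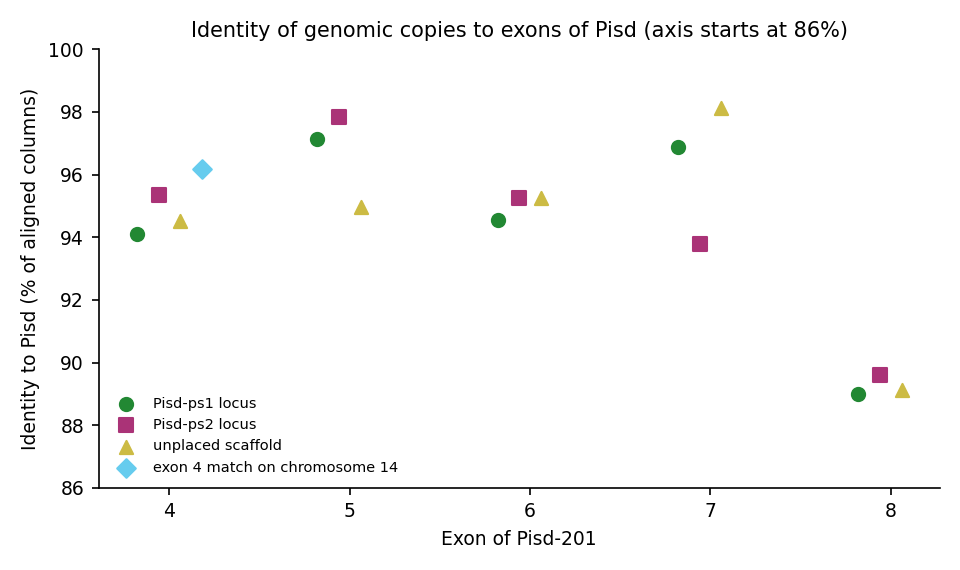
Identity to Pisd in percent of aligned columns (vertical axis, which starts at 86%) for each exon of Pisd-201 with a match outside its own locus (horizontal axis), with a symbol for each genomic copy. The last exon, exon 8, lies at 89.0% to 89.6% in all 3 copies, below every other exon, which lie between 93.8% and 98.1%.

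The coding part of the last exon of Pisd is shown with the same stretch in the copies. It spans the whole annotated last exon of both pseudogenes and shows how few bases tell the copies apart there. In Pisd it is the first 225 of the 1588 bases of that exon, on the side away from the 3′ end where the method reads. It does not show how alike the copies are over the rest of the exon. Sequences are from GRCm39, read 5′ to 3′ on the gene's strand, and capitals mark bases that differ from Pisd. Bases that a copy lacks are not marked.

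Pisd, chr5:32894574-32894798, minus strand: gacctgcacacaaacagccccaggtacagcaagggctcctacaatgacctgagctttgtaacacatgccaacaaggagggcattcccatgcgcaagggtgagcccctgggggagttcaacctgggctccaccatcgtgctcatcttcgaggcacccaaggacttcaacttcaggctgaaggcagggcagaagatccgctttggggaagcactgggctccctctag

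Pisd-ps1, chr11:3080793-3081004, plus strand: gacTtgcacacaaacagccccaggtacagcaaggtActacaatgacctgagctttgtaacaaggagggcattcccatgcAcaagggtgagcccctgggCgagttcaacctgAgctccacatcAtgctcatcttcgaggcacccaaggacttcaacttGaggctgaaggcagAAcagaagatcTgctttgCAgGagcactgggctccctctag

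Scaffold copy, JH584304.1:53621-53832, minus strand: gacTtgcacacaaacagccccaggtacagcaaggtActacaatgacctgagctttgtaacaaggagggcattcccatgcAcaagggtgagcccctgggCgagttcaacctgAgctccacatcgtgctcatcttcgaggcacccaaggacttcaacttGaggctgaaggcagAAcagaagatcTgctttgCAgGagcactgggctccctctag

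Pisd-ps2, chr17:3126853-3127057, minus strand: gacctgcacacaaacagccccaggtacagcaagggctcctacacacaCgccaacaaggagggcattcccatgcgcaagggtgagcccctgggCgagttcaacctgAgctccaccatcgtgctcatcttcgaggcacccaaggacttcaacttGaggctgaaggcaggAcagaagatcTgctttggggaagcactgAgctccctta

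Pisd-ps1 differed from Pisd at 13 of 212 aligned bases and lacked 13 bases, and the scaffold copy differed at 12 of 212 and lacked 13. Between Pisd-ps1 and the scaffold copy there was 1 differing base in 212 (identity 99.5%). Pisd-ps2 differed from Pisd at 7 of 205 aligned bases and lacked 20. The Pisd-ps1 and scaffold stretches were thus far more alike than either was to Pisd.

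Every stretch of 75 bases, about the length of a read, was searched in the genome to see how well a read could be placed. In the last exon of Pisd 94.1% of 1514 such windows occurred at 1 place only. In the annotated last exon of Pisd-ps1 this was 54.3% of 138 windows, in that of Pisd-ps2 100% of 131, and in the scaffold stretch that matches the last exon of Pisd 58.1% of 1569. Reads that aligned equally well to several places were given to no gene, so a larger part of the reads of Pisd-ps1 and of the scaffold copy than of Pisd could go uncounted. Alignments to several places came to 317 to 397 per 100 reads in genes in Abi3_WT and 361 to 390 in Abi3_KO (two-sided exact permutation test, p = 0.355). In this annotation Pisd-ps1 also ended 1422 bases before the stretch that matches the transcript end of Pisd, and Pisd-ps2 ended 406 bases before its match ran out with 969 bases of Pisd unmatched.

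ENSMUSG00000095041 took 467 to 949 reads in Abi3_WT and 638 to 1094 in Abi3_KO. After scaling for depth with DESeq2 size factors, its normalized count in Abi3_WT was lowest at 488, had a median of 640.1 and was highest at 844. In Abi3_KO it was 1147, 907, 762, 1219.7 and 960.5 in replicates 1 to 5. Of the 5 Abi3_KO animals 4 lay above every Abi3_WT animal, and Abi3_KO replicate 3 lay below Abi3_WT replicates 1 and 6, so the groups overlapped. Abi3_WT had a mean of 656 ± 134 (SD, n = 6), and the mean of Abi3_KO was 1.52-fold higher at 999 ± 185 (SD, n = 5). DESeq2 fitted a log2 fold change of 0.61 ± 0.13 (standard error). This difference was what the gene was chosen for and is given as a description, with no test.

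An adjusted p was given to 6487 of 17626 genes, since DESeq2 leaves out genes with a mean under its filter of 70.4 normalized counts. Genes under the filter could not pass. Across all genes, 95 of 17626 passed an adjusted p of 0.05 in DESeq2, which is 0.539%, with 60 higher and 35 lower in Abi3_KO. Among the 4 genes described here with a count, ENSMUSG00000095041 was in that number, which its choice had fixed, and Pisd and Pisd-ps1 were not. Leaving out Abi3_WT replicate 5, Abi3_KO replicate 2 or Abi3_KO replicate 5 took ENSMUSG00000095041 out of the genes that passed. Its log2 fold change was then 0.62, 0.64 and 0.62, close to the value with all animals, and the standard error was 0.19 in each. With reads outside genes per 100 as a covariate, a measure that differed between the genotypes, its log2 fold change was 1.10 ± 0.20 (standard error).

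Among the 10 marker lists, the summed levels of 2 moved most with ENSMUSG00000095041 across the 11 animals, on a log2 scale. The striatum list (5 of 5 genes with reads, 1069 to 1582 normalized counts in Abi3_WT and 1034 to 1560.1 in Abi3_KO) had r = -0.638 and rho = -0.627 (permutation p = 0.0382 and 0.0438, adjusted over the 10 lists 0.201 and 0.438), and r was -0.596 without the 2 animals farthest from the median of the list. The endothelium list (3 of 3 genes with reads, 329 to 599 in Abi3_WT and 502 to 545 in Abi3_KO) had r = 0.617 and rho = 0.509 (permutation p = 0.0402 and 0.114, adjusted 0.201 and 0.569). Its r fell to 0.162 without the 2 farthest animals, so the r over all 11 animals rested on them. Neither list passed the adjustment. With each value centred on its genotype mean, r was -0.654 for striatum and 0.522 for endothelium. In Abi3_WT alone it was -0.900 and 0.697. Cortical excitatory neurons had r = -0.00546 over all 11 animals, -0.535 centred and -0.846 in Abi3_WT alone. The other lists ran from -0.148 to 0.346 centred and from -0.426 to 0.613 in Abi3_WT alone. These values have no test, and the part of any list in the difference of ENSMUSG00000095041 was not tested.

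Pisd, the decarboxylase itself, took 53 to 162 reads in Abi3_WT and 49 to 82 in Abi3_KO. Its normalized count in Abi3_WT was lowest at 57.5, had a median of 70.5 and was highest at 117 in replicate 5. In Abi3_KO it was 51.4, 78.8, 85.9, 62.1 and 93.3 in replicates 1 to 5. All 5 Abi3_KO animals lay below the highest Abi3_WT animal, and the lowest animal of all was Abi3_KO replicate 1. Abi3_WT averaged 76.1 ± 22.2 (SD, n = 6) and Abi3_KO 74.3 ± 17.3 (SD, n = 5), a difference smaller than either SD (two-sided exact permutation test, p = 0.885). DESeq2 gave a log2 fold change of -0.04 ± 0.23 (standard error) and an adjusted p of 0.970 over all genes, and the 95% interval of the log2 fold change ran from -0.48 to 0.40. Its sign turned when Abi3_WT replicate 5 (0.13), Abi3_KO replicate 1 (0.07) or Abi3_KO replicate 4 (0.02) was left out, and no direction is given for Pisd.

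Pisd-ps1, the copy on chromosome 11, was near the limit of detection. It took 1 to 6 reads in Abi3_WT and 1 to 5 in Abi3_KO. Its normalized count was lowest at 0.669, had a median of 3.02 and was highest at 6.35 in Abi3_WT, and was 5.24, 1.01, 2.39, 5.65 and 4.55 in Abi3_KO replicates 1 to 5. The range of Abi3_KO lay within that of Abi3_WT, with means of 3.27 ± 2.37 (SD, n = 6) and 3.77 ± 1.99 (SD, n = 5) and a two-sided exact permutation p of 0.710. The fitted log2 fold change was 0.25 ± 0.85 (standard error) in DESeq2 and, since the mean lay below its filter of 70.4 normalized counts, there was no adjusted p, while edgeR gave an adjusted p of 0.978. A difference in Pisd-ps1 was thus not detectable with so few reads.

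Pisd-ps2, the copy on chromosome 17, had 3 reads in Abi3_WT replicate 3, 2 in Abi3_KO replicate 1, 1 in Abi3_KO replicate 3 and none in the other 8 animals. With 6 reads in all it fell under the minimum of 10 reads and was not fitted. The normalized counts, 3.14, 2.10 and 1.19 in the animals with reads, gave a two-sided exact permutation p of 0.848. A count of 0 allows up to 3 reads, which is a CPM of 0.545 to 0.937 in these libraries.

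**Figure D2:**
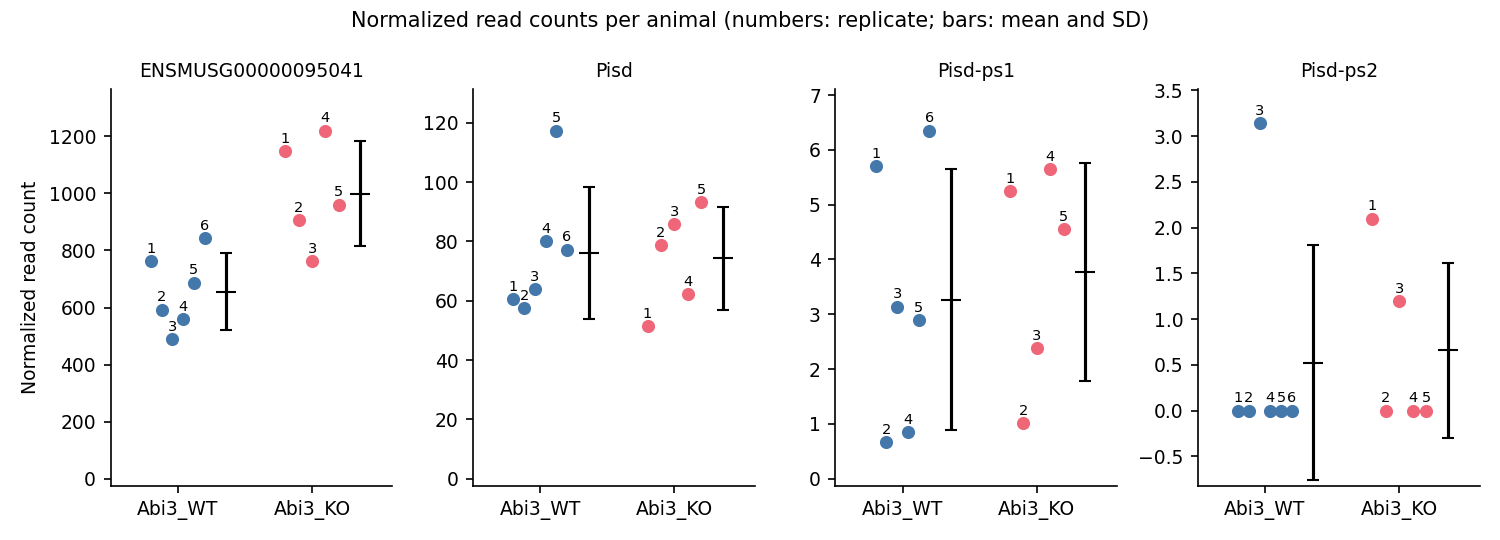
Normalized read count (vertical axis, a scale for each gene) of every animal in Abi3_WT (blue) and Abi3_KO (red) for the 4 genes with a count, with the replicate number beside each point and the mean and SD as bars. For ENSMUSG00000095041, 4 of 5 Abi3_KO animals lie above the highest Abi3_WT animal at 844, whereas for Pisd and both pseudogenes the groups overlap.

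Summed over the 4 genes with a count, which took 534 to 1115 reads in Abi3_WT and 713 to 1150 in Abi3_KO, Abi3_WT reached 736 ± 140 normalized counts (SD, n = 6) and Abi3_KO 1078 ± 174 (SD, n = 5). ENSMUSG00000095041 made up 85.1% to 92.0% of these reads in Abi3_WT and 89.5% to 95.1% in Abi3_KO, so the sum followed it. These shares count reads near 3′ ends, with no length for ENSMUSG00000095041, and do not rank the genes by expression. Without it, the sum of Pisd, Pisd-ps1 and Pisd-ps2 came to 79.9 ± 21.9 (SD, n = 6) for Abi3_WT against 78.7 ± 15.8 (SD, n = 5) for Abi3_KO (two-sided exact permutation test, p = 0.922). Within each animal the count of ENSMUSG00000095041 was 5.86 to 12.6 times that of Pisd in Abi3_WT, and 22.3, 11.5, 8.86, 19.6 and 10.3 times in Abi3_KO replicates 1 to 5. The highest ratios, in Abi3_KO replicates 1 and 4, came from the animals with the highest ENSMUSG00000095041 and the lowest Pisd counts of that group.

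Whether the genes varied together was asked over the 11 animals on log2(normalized count + 1), for the 3 pairs that could be formed without Pisd-ps2. ENSMUSG00000095041 and Pisd had a Pearson r of -0.146 and a Spearman rho of -0.182 (permutation p = 0.668 and 0.596, 0.695 and 0.596 after Benjamini-Hochberg adjustment over the 3 pairs), and r was -0.201 without the 2 animals farthest from the median of ENSMUSG00000095041. Among the 6 Abi3_WT animals alone r was 0.215 (exact permutation p = 0.718). No relation between them was detectable, and Pisd stood at place 7230 of 10971 genes when ordered by r with ENSMUSG00000095041.

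ENSMUSG00000095041 and Pisd-ps1 had r = 0.553 and rho = 0.545 (permutation p = 0.0808 and 0.0883, adjusted 0.242 and 0.265), and r was 0.629 without the 2 farthest animals. Among the Abi3_WT animals r was 0.661 (exact permutation p = 0.165), and with each value centred on its genotype mean r was 0.674 and rho 0.755 (permutation p = 0.0261 and 0.0102, adjusted 0.0784 and 0.0307). These values rest on 1 to 6 reads of Pisd-ps1 per animal, and the 3 animals with 1 read, Abi3_WT replicates 2 and 4 and Abi3_KO replicate 2, were among the 4 deepest libraries, at 5501958, 4241818 and 3933819 reads in genes. The part of depth in this relation was not tested. The permutation mixed the centred values of both genotypes freely, so the p-values of the centred r and rho can be too small. Pisd and Pisd-ps1 had r = -0.134 and rho = -0.236 (permutation p = 0.695 and 0.487, adjusted 0.695 and 0.596), and r was -0.0204 without the 2 farthest animals.

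**Figure D3:**
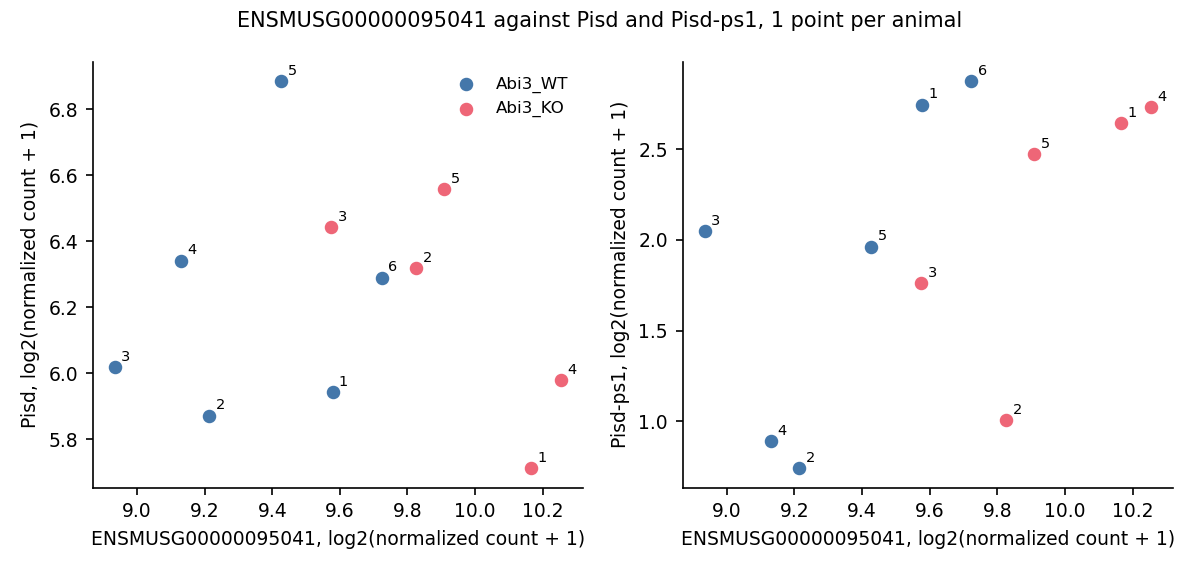
Level of Pisd (left) and of Pisd-ps1 (right) against that of ENSMUSG00000095041, all as log2(normalized count + 1), with 1 point per animal in Abi3_WT (blue) or Abi3_KO (red) and its replicate number. The Pearson r is -0.146 for Pisd and 0.553 for Pisd-ps1, and the 3 lowest points for Pisd-ps1 are the animals with 1 read.

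The genes most like ENSMUSG00000095041 across the 11 animals were found by Pearson r over 10972 genes with a mean of at least 20 normalized counts, as a description with no test. Those reported here were Fgfr2 (a fibroblast growth factor receptor, r = 0.879), Flot2 (a flotillin of membrane microdomains, 0.876), Gstm7 (a glutathione S-transferase, 0.875) and C1qbp (a mainly mitochondrial protein that binds complement C1q, 0.875). With values centred on the genotype means these r were 0.681 to 0.827, the highest for Flot2. Lowest were Gm14239 (-0.860), Inpp5f (a phosphoinositide phosphatase, -0.858), Creld1 (-0.849), Yju2b (-0.837) and Mtf2 (a Polycomb-associated protein, -0.837). None of these 9 was among the 95 genes that passed. For Pisd the genes most alike were Syt3 (a synaptotagmin, 0.889), Ctnna2 (the neuronal alpha-catenin, 0.879), Clstn3 (a calsyntenin of synapses, 0.868), A530017D24Rik (0.859) and Rad52 (a DNA repair protein, 0.845), none of which was on the list for ENSMUSG00000095041.

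**Figure D4:**
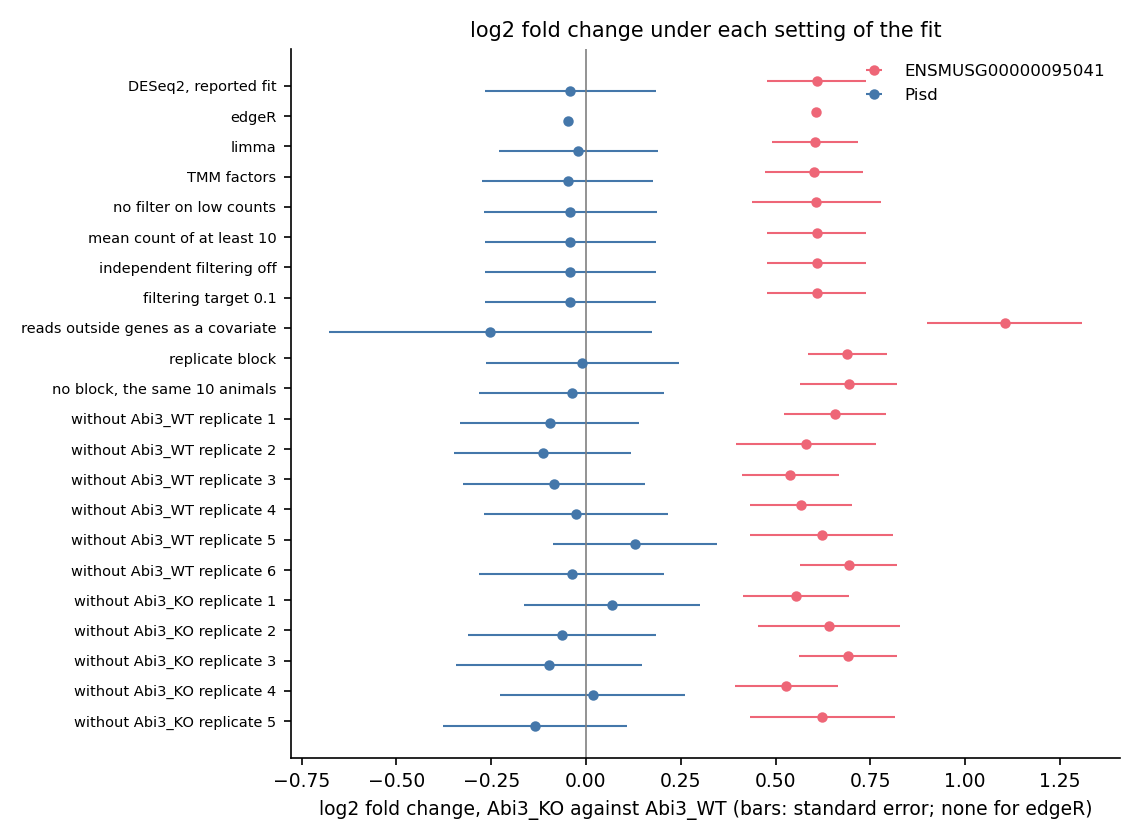
Log2 fold change between Abi3_KO and Abi3_WT (horizontal axis, positive where Abi3_KO is higher) with its standard error for ENSMUSG00000095041 (red) and Pisd (blue) under each setting of the fit (vertical axis). ENSMUSG00000095041 lies between 0.53 and 0.69 under all settings but the covariate, where it is 1.10, and Pisd lies on both sides of 0.

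Of the 38 genes listed for the pathway around Pisd, 37 were tested, and 1 passed, where 0.539% of all genes did. That gene was Tmem30a, the shared subunit that phosphatidylserine flippases need, with a log2 fold change of 0.32 ± 0.09 (standard error; DESeq2, adjusted p = 0.0257). Its normalized count was 776 to 1007, median 811, in Abi3_WT and 955, 1240.3, 1042, 975 and 1032 in Abi3_KO replicates 1 to 5, so that 3 of 5 Abi3_KO animals lay above the highest Abi3_WT animal. Tmem30a did not pass with edgeR (adjusted p = 0.174), limma (0.128) or independent filtering off (0.0619), nor without Abi3_WT replicate 5 (0.0850), Abi3_WT replicate 6 (0.0963) or Abi3_KO replicate 2 (0.147). With reads outside genes as a covariate its log2 fold change was 0.05 ± 0.14 (standard error). The median log2 fold change was -0.04 over the 37 genes and -0.00334 over all genes tested, with 15 estimates above 0 and 22 below.

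None of the 19 tested genes of phosphatidylserine and phosphatidylethanolamine synthesis and transport passed in DESeq2, nor with edgeR or limma. At an unadjusted p under 0.05, where 8.58% of all genes stood, 3 of these 19 stood. They were Triap1, which helps carry lipids between the mitochondrial membranes (log2 fold change 0.55, standard error 0.25), Etnppl, an astrocyte enzyme that breaks down phosphoethanolamine (-0.74, standard error 0.37), and Chka, a choline and ethanolamine kinase (-0.29, standard error 0.15). Neither synthase of the substrate of Pisd passed, at 0.09 ± 0.11 for Ptdss1 and -0.24 ± 0.15 for Ptdss2 (log2 fold change and standard error). Of the 10 cardiolipin genes Lclat1, a lysocardiolipin acyltransferase, stood at an unadjusted p under 0.05 (0.40, standard error 0.20). Etnk1, the kinase that opens the ethanolamine route, had -0.11 ± 0.08.

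**Figure D5:**
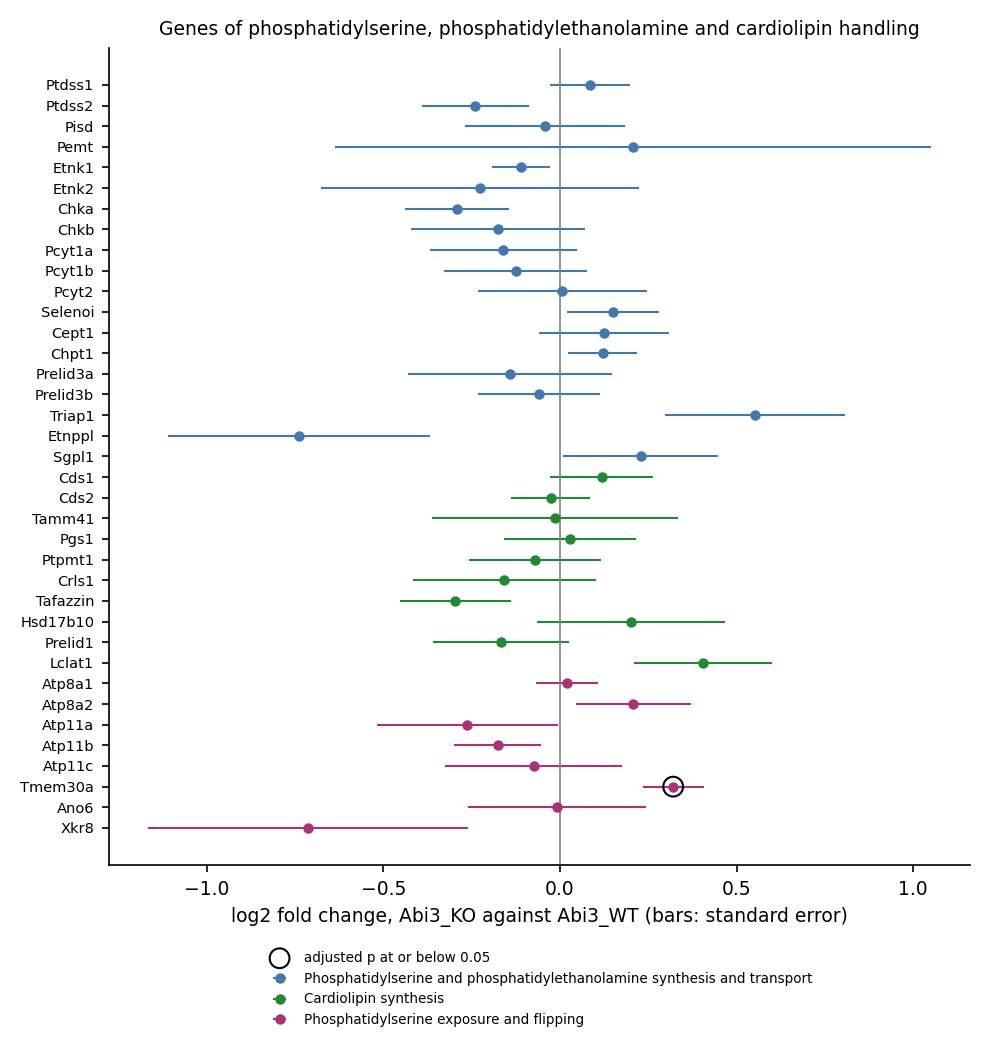
Log2 fold change between Abi3_KO and Abi3_WT (horizontal axis) with its standard error for the 37 tested genes of phosphatidylserine, phosphatidylethanolamine and cardiolipin handling (vertical axis), coloured by the part of the pathway. Tmem30a, circled at 0.32, is the gene that passed in DESeq2, and Pisd lies at -0.04.

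Of the 120 genes within 500 kb of Pisd, Pisd-ps1 or Pisd-ps2, 32 were tested and 0 passed in DESeq2, edgeR or limma. In DESeq2 0.539% of all genes passed, so a count of 0 of 32 is near that share. Many of the 32 lay under the filter of 70.4 normalized counts and could not pass there. An unadjusted p under 0.05 in DESeq2 was found for 4 of the 32 (12.5%), against 8.58% of all genes. Pisd overlaps 5 annotated genes, of which Gm2420 and Gm43695 had no read in any animal and the other 3 had no row in the counts. The genes that overlap the pseudogenes, Gm74511 over Pisd-ps1 and Gm64819 and 1700024P12Rik over Pisd-ps2, had no row either. Reads of those 6 genes without a row were not counted and are not known.

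ENSMUSG00000095041 was 1 of 1090 identifiers in the counts that the newer annotation did not hold. Of these, 854 had no read in any animal and 86 were tested. ENSMUSG00000095041 had the highest mean count of the 86. No other of the 86 passed in DESeq2, edgeR or limma. In DESeq2 most of the 86 lay under the filter of 70.4 normalized counts and could not pass. The identifier ranked 6 by mean count already stood at 65.6. ENSMUSG00000095041 itself had been chosen by its difference, so that nothing is read from its own call. At an unadjusted p under 0.05, 2 of the 86 were higher and 7 lower in Abi3_KO, together 10.5% of them against 8.58% of all genes, of which 729 were higher and 783 lower. All unmatched identifiers together held 0.0584% to 0.0835% of the reads in genes, and ENSMUSG00000095041 alone 0.0131% to 0.0323%.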

How the data were processed

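RNA from cerebral cortex of 11 mice was sequenced with QuantSeq. The authors trimmed reads with bbduk, aligned them with STAR 2.7.3a to GRCm39 and counted them per gene of Ensembl release 103 with htseq-count (HTSeq 0.9.1), by strand and only at unique alignments. The files as deposited hold raw counts of reads for each gene, 1 table per animal, with no step stated that collapses PCR copies.

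Groups came from the labels. Counts were tested with DESeq2 1.42.0 in R 4.3.3 in the study's design, genotype alone, on genes with at least 10 reads in total and a mean of at least 1.5 normalized counts, with Benjamini-Hochberg adjustment and a threshold of 0.05. edgeR 4.0.16 and limma 3.58.1 served as alternatives, beside other filters and factors, a covariate, a block and leaving out each animal. The fits were tested on simulated data. CPM served as another scale. Single genes were compared by exact permutation over animals, and correlations by 100000 permutations. Intervals and limits cover counting error or the spread between animals only. That animals are separate is taken from the labels.

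Of 53700 identifiers, 52610 (98.0%) matched GENCODE M39, a newer annotation of GRCm39. Copies were searched in GRCm39 with BLAST 2.17.0. Named genes were those described, Abi3, pathway genes by threshold or in list order, genes overlapping a member, and the 5 most and least alike by r, of which 1 is not reported here. The genes and lists were chosen with earlier results of these data known.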

Additional observations from a re-analysis of the deposited data

Results flagged for a closer look

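In 32 groups of values checked for an animal far from the others of its group, 3 were found. Chance gives about 1 in 20 for independent groups of values that vary continuously. Some of the 32 groups share the same counts. Pisd-ps2 had 3.14 normalized counts (3 reads) in Abi3_WT replicate 3 and 0 in the other 5 Abi3_WT animals. Abi3 had 2.02 normalized counts (2 reads) in Abi3_KO replicate 2, where the rest of that group had 0. In both of these groups reads in any single animal would be flagged, so the rate does not hold for them. Tmem30a had 1007 normalized counts in Abi3_WT replicate 3, against 776 to 855 in the other 5 Abi3_WT animals.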

How the results depend on the processing

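The number of genes that passed was 95 in the reported DESeq2 fit, and was 37 with edgeR, 20 with limma, 57 with independent filtering off and 3 with reads outside genes as a covariate, and ran from 46 to 120 when each animal was left out in turn. ENSMUSG00000095041 passed under every alternative that kept all animals and when 8 of the 11 were left out singly. The number of described genes that passed, and that of unmatched identifiers that passed, thus ran from 0 to 1. Since ENSMUSG00000095041 was chosen by its difference in these same animals, its passing again is a description, from which nothing is read. The log2 fold change of ENSMUSG00000095041 was 1.10 with the covariate and ran from 0.53 to 0.69 when animals were left out. With no filter on low counts its standard error was 0.17, against 0.13 in the reported fit. The count of pathway genes that passed, recomputed under settings chosen after seeing the data, was 0 with edgeR, limma, independent filtering off and the covariate, and 0 or 1 when animals were left out. The cause of these changes was not tested.

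For Pisd, leaving out animals moved the log2 fold change from -0.13 to 0.13 and the difference of normalized counts from -6.52 to 6.48, and for Pisd with its pseudogenes the summed difference from -5.92 to 6.93. For Pisd-ps1 the difference ran from -0.0204 to 1.19 and for Pisd-ps2 from -0.225 to 0.658. The log2 fold change of Pisd-ps1 ran from 0.0148 to 0.556 when animals were left out. With reads outside genes as a covariate the log2 fold change was -0.25 ± 0.43 (standard error) for Pisd and 1.16 ± 1.58 for Pisd-ps1. The log2 ratio of the summed counts was 0.55 with ENSMUSG00000095041 and was -0.0207 for Pisd and its pseudogenes alone. The correlation of ENSMUSG00000095041 with Pisd turned to 0.215 in the 6 Abi3_WT animals and ran from -0.299 to 0.0835 when animals were left out, and that of Pisd with Pisd-ps1 turned to 0.0754 in the Abi3_WT animals.

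Whether the replicate numbers pair the animals cannot be told from the labels, and the reported fit used no pairing. Deviations of same-numbered animals correlated at -0.00485 to 0.0656, with a mean of 0.0184 against -0.00368 for other pairs. Of the 5 Abi3_KO animals, 2 correlated best with their own number. These values do not settle the question. A fit with the replicate block used the 10 animals that share numbers. It gave 33 genes and 0 pathway genes, against 48 and 0 without the block. ENSMUSG00000095041 passed in both, again as a description, since it was chosen by its difference. Pisd-ps1 and Pisd-ps2 had at most 6 reads per animal, which limits what can be said of them, and the cause of the low counts was not tested.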
